A study of Mus musculus with 35 samples.

Results

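The mouse genes named Zfp600 to Zfp999, which carry 3-digit Zfp symbols in the order of their naming, were described in hippocampal RNA of mice after intra-amygdala kainic acid. Every gene symbol from Zfp600 to Zfp999 was taken (144 symbols), and the 138 with 10 or more counts on average over the libraries of m6A-immunoprecipitated RNA were kept, of 32544 genes in all. Zfp600 was nearest to the limit on the inside, at 10.8 counts on average, and Zfp819 nearest on the outside, at 6.37. The mice were male C57BL/6JOlaHsd animals of 7 to 9 weeks that received 0.3 µg of kainic acid (KA), a glutamate receptor agonist that triggers status epilepticus, or PBS into the amygdala, and hippocampi were taken 24 hours or 2 weeks later. Lorazepam followed the KA injection. Each mouse gave a library of total RNA (input), a library of RNA pulled down with an antibody against m6A, or both. The m6A libraries came from 5 KA and 3 PBS mice at 24 hours and from 6 KA and 5 PBS mice at 2 weeks. Of the input libraries, 3 KA and 1 PBS at 24 hours and 6 KA and 3 PBS at 2 weeks had at least 100000 counts and were used.

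Most Zfp genes encode C2H2 zinc finger proteins, in which repeated small units fold around a zinc ion held by a pair of cysteines and a pair of histidines, and rows of such fingers read DNA. Many also carry a KRAB domain, which recruits the corepressor Trim28 and through it the histone methyltransferase Setdb1, and these proteins are best known for silencing transposable elements. N6-methyladenosine (m6A) is a methyl mark on adenosines of mRNA that is placed mostly within short motifs with a central AC and that influences splicing, decay and translation.

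Transcripts from GENCODE were found for 134 of the 138 members. Of these, 87 encoded a KRAB-like stretch and 47 did not, and the number of C2H2 fingers ran from 0 to 33 with a median of 11. The repeat that the family shares is shown by the coding sequence of the first finger of 3 members that were higher in the m6A libraries and of Zfp956, which was lower there. The codons of the zinc-binding cysteines and histidines are in capitals.
Zfp948: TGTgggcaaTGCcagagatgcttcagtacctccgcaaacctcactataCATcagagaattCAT
Zfp809: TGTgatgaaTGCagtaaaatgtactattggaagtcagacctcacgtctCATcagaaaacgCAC
Zfp771: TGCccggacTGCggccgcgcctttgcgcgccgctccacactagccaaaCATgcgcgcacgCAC
Zfp956: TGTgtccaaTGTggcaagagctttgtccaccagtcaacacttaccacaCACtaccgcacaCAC
Each stretch is 63 bases long. The genes lie at chr17:21565816-21589324 (Zfp948), chr9:22225667-22254117 (Zfp809), chr7:127242996-127254872 (Zfp771) and chr6:47953390-47965300 (Zfp956) on GRCm38.p6, the mm10 build.

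GGACT is the most familiar of the m6A motifs, so the first GGACT of the coding sequence is shown, in capitals with its flanks, for 2 of the members with the smallest p among those higher in the m6A libraries and for 2 members that were lower.
Zfp830: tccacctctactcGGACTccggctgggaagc
Zfp638: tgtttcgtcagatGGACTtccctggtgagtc
Zfp956: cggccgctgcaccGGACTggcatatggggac
Zfp668: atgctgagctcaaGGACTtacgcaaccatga
On the sense strand of the whole transcript, Zfp830 held 3 copies of GGACT, Zfp638 held 6, Zfp956 held 4 and Zfp668 held 6. At least 1 copy was present in 89.6% of the members' transcripts and in 93.2% of the transcripts of all genes tested. A match to these letters is a description and was not measured as a methylated site. The other coordinates of genes shown here are chr11:82764345-82767622 for Zfp830, chr6:83867068-83986871 for Zfp638 and chr7:127861025-127876836 for Zfp668.

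Total counts were 3057578 to 12694434 in the input libraries used and 1652933 to 34564536 in the m6A libraries. The m6A libraries of KA mice 67 and 98 at 24 hours had the fewest counts, 1979606 and 1652933. Column names carry the assay for 8 of the 35 libraries, and for the other 27 it was read from whether the name has a numeric prefix, 3, 4 or 5 for m6A, which is called the library set here. KA mouse 8 at 24 hours stood apart in both libraries, with 17.4% (input) and 16.4% (m6A) of counts from mitochondrial genes, against 1.41% to 6.45% in the other input libraries. The m6A library of KA 2 weeks mouse 6 reached 17.5%. All 5 markers of hippocampal excitatory neurons were detected in every library used, at summed levels of 756 to 5392 CPM (a gene's counts scaled to a common library total), and mouse 8 was lowest in each assay. Its sums of astrocyte, microglia and oligodendrocyte markers were also the lowest in each assay (input 830, 83.8 and 697 CPM). Its endothelial sum was the highest of the input libraries used, at 1206 CPM.

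The members together took a larger share of the m6A libraries than of the input libraries. Their summed level ran from 2338 to 3425 CPM (median 2656) in the input libraries and from 2644 to 4923 CPM (median 4088) in the m6A libraries of the same 13 mice, and it was higher in the m6A library in 13 of 13 mice, by 1.13 to 1.88 times. Mouse 9 (KA, 2 weeks) had the largest ratio, and the shallow libraries of mice 67 and 98 the smallest, with 1.13 in mouse 98. This direction was not particular to the members. The summed level of Zfp1 to Zfp599 was also higher in the m6A library of each of these mice. Over all genes tested below, the median log2 ratio of CPM was above 0 in 13 of 13 mice, at 0.0038 to 0.26 (median 0.10). Over the members it was 0.12 to 0.79 (median 0.37). Zfp638, a large nuclear protein that takes part in silencing unintegrated retroviral DNA, was the most abundant member in both assays, at a mean of 479 CPM in m6A and 271 CPM in input, whereas the median member stood at 16.7 and 11.9 CPM.

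**Figure D1:**
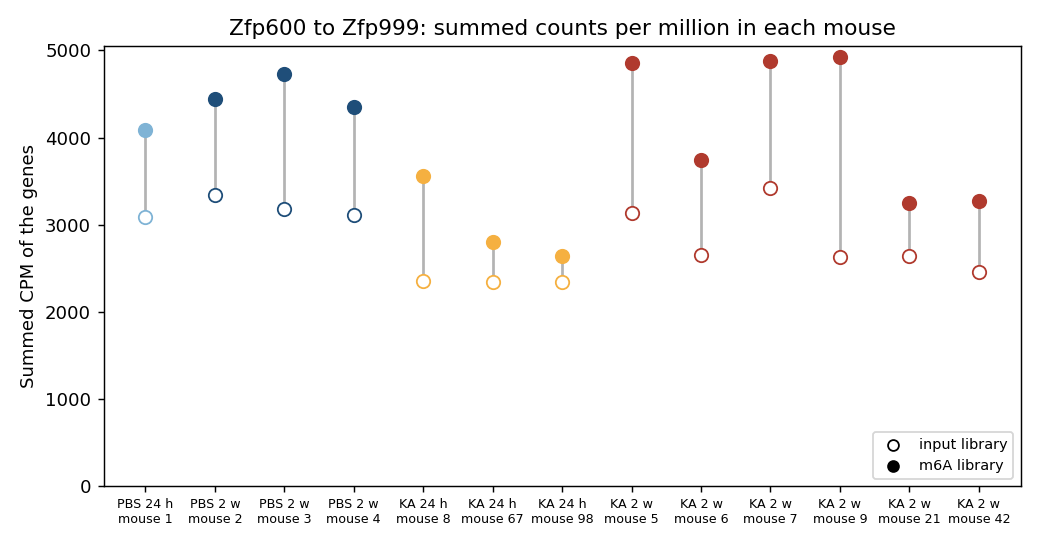
Summed CPM of the 138 genes (vertical axis) in the input library (open circle) and the m6A library (filled circle) of each of the 13 mice, coloured by group. The filled circle lies above the open circle in all 13 mice, and the 2 are closest in KA 24 h mice 67 and 98. The median log2 ratio of CPM over all genes tested was also above 0 in all 13 mice.

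Each member was then compared between the m6A and the input library of the same mouse, which asks whether its transcripts were over- or under-represented in the pulldown. With edgeR's quasi-likelihood test and the mouse as a block, 39 of 138 members (28.3%) were higher in the m6A libraries at an adjusted p under 0.05, against 11.0% of the 20567 genes tested. Only 3 members (2.17%) were lower, against 8.83% of all genes. The members had been kept by their m6A counts alone, 1 side of this comparison. All genes were filtered over both assays instead, so the shares come from sets filtered differently. The zinc finger genes outside the members had shares near theirs. Of 190 genes named Zfp1 to Zfp599, 49 were higher (25.8%) and 4 lower. Of 182 other genes that encode 5 or more fingers, 43 were higher (23.6%) and 6 lower. The median log2 fold change of the members was 0.22 and that of all genes -0.03, and 99 of the 138 members lay above 0. The steps were small: 4 members were also more than 1 log2 unit higher (2.90%, against 1.25% of all genes), and none was that much lower, against 0.904%. The 4 were Zfp830, Zfp771, Zfp934 and Zfp708. The last 2 had few counts in most input libraries and were picked out after their values were seen. Scaling by library size in place of TMM raised the median of all genes to 0.16 and the members' median to 0.42, so that 71 members were called higher and 0 lower, against 23.1% and 2.28% of all genes. Relative to all genes the members' median was 0.26 higher with TMM and 0.27 higher with library size. It was 0.24 higher with TMM where every gene had to average at least 10 counts over the libraries of both assays. Without the mouse as a block, 22 members were called higher and 2 lower, against 6.38% and 3.02% of all genes. The labels describe the immunoprecipitation as one for polyA RNA from total RNA, and library sets did not overlap between assays, so the pulldown, a difference between polyA and total RNA and the library set cannot be told apart.

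Zfp830, a nuclear protein with a single finger, had the smallest p. It ran from 6.14 to 13.4 CPM (median 8.74) in input and from 10.0 to 36.3 CPM (median 22.6) in m6A, and was higher in the m6A library in 13 of 13 mice, by 1.07 on the log2 scale (SE 0.13, adjusted p = 1.2e-05). Zfp948, a KRAB-like member with 15 fingers, ran from 7.49 to 22 CPM (median 11.5) in input and from 12.7 to 40.3 CPM (median 24.6) in m6A. Its difference was 0.83 (SE 0.13, adjusted p = 0.00015), again in 13 of 13 mice. The input and m6A ranges of these members overlapped between mice, so the difference rests on the pairs.

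Zfp638 was at 145 to 368 CPM (median 273) in input and 257 to 899 CPM (median 583) in m6A, a difference of 0.69 (SE 0.12, adjusted p = 0.00064). Zfp809, which binds the primer binding site of murine leukemia virus and recruits Trim28 to it, was at 4.94 to 10.9 CPM (median 7.80) in input and 6.57 to 24.1 CPM (median 13.7) in m6A, a difference of 0.71 (SE 0.13, adjusted p = 0.00078). For Zfp638 and Zfp809 the m6A value exceeded the input value in 13 of 13 mice. Zfp771, a short protein with 8 fingers and no KRAB-like stretch, had one of the largest differences, 1.05 (SE 0.21, adjusted p = 0.0016). Its m6A value was higher in 12 of 13 mice, and the exception was KA 2 weeks mouse 6, whose log2 ratio was -0.96.

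The KRAB-like members Zfp941, Zfp612, Zfp947, Zfp758 and Zfp790 completed the 10 members with the smallest p. Their log2 fold changes were 0.44, 0.52, 0.76, 0.87 and 0.51, and their adjusted p-values ran from 0.00071 to 0.0030. Zfp941, Zfp612 and Zfp947 were higher in the m6A library in 13 of 13 mice, and Zfp758 and Zfp790 in 12.

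The 3 members that were lower in the m6A libraries carried no KRAB-like stretch. Zfp956 ran from 4.24 to 12.2 CPM (median 8.73) in input and from 3.78 to 9.32 CPM (median 7.58) in m6A, a difference of -0.51 (SE 0.13, adjusted p = 0.0074). Zfp668 ran from 10.6 to 19.0 CPM in input and from 11.4 to 18.1 CPM in m6A, and differed by -0.33 (SE 0.09, adjusted p = 0.013). Zfp697 ran from 40.6 to 225 CPM in input, highest in mouse 8, and differed by -0.28 (SE 0.09, adjusted p = 0.026). The m6A CPM was higher in 4, 3 and 4 of 13 mice for Zfp956, Zfp668 and Zfp697, and with library size scaling none of the 3 was called.

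**Figure D2:**
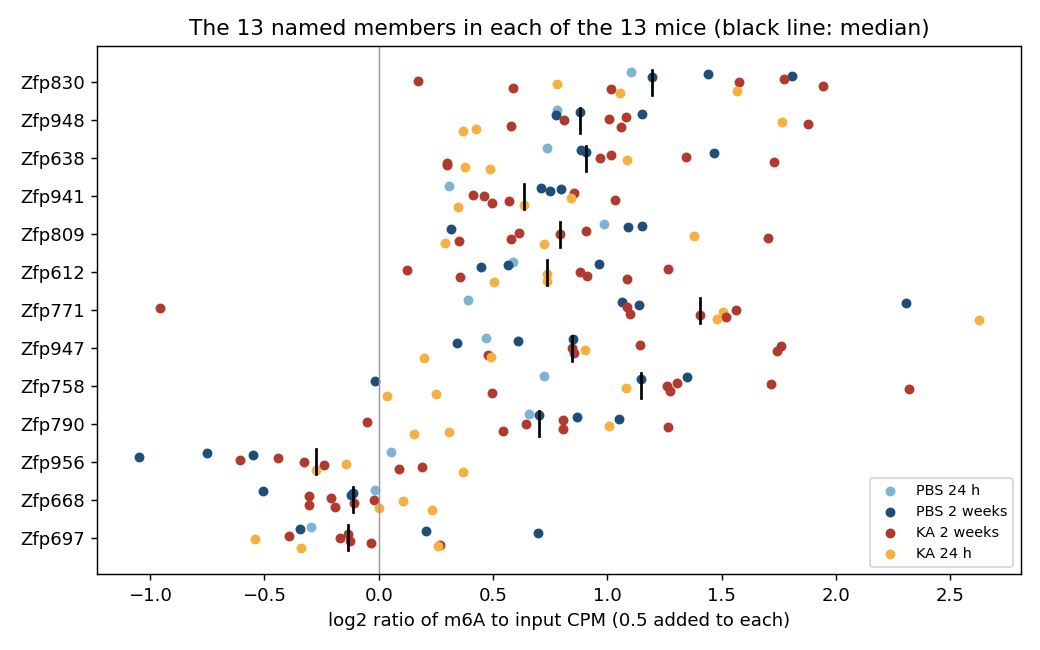
The log2 ratio of m6A to input CPM (horizontal axis, 0.5 CPM added to each) for the 10 members higher and the 3 lower in the m6A libraries with the smallest p, 1 point per mouse coloured by group, with the median over 13 mice as a black line. For Zfp830, Zfp948, Zfp638, Zfp941, Zfp809, Zfp612 and Zfp947 all 13 points lie above 0, and for Zfp771 KA 2 weeks mouse 6 lies at -0.96.

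The members were also divided by the KRAB-like stretch. The KRAB-like members' median log2 fold change was 0.28 (n = 87) with 28 called higher (32.2%) and 0 lower. For members without the stretch it was 0.05 (n = 47) with 10 higher (21.3%) and 3 lower. Of all genes, 11.0% were higher and 8.83% lower. Zinc finger genes with lower numbers, Zfp1 to Zfp599, are no members, and they gave 0.32 for KRAB-like genes (n = 83) and 0.08 for the rest (n = 107). Of these 2 classes 34.9% and 18.7% were called higher. The difference between the 2 classes of members was 0.23, and between 0.15 and 0.29 under the 20 alternatives, lowest without mouse 9. By number of fingers the members' medians were 0.04 for 0 to 4 fingers (n = 16), 0.19 for 5 to 9 (n = 36) and 0.27 for 10 or more (n = 82). The 2 features were linked: with 10 or more fingers, the median was 0.34 for the 67 KRAB-like members and -0.10 for the 15 others. With 5 to 9 fingers the medians were close, 0.21 for the 18 KRAB-like members and 0.16 for the 18 others. For Zfp1 to Zfp599 they were 0.34 (n = 59) and 0.09 (n = 52) with 10 or more fingers. With 5 to 9 fingers those genes had 0.16 (n = 22) and 0.0049 (n = 26). These are descriptions across genes of 1 family, with no test, since the genes share sequence and are not replicates.

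**Figure D3:**
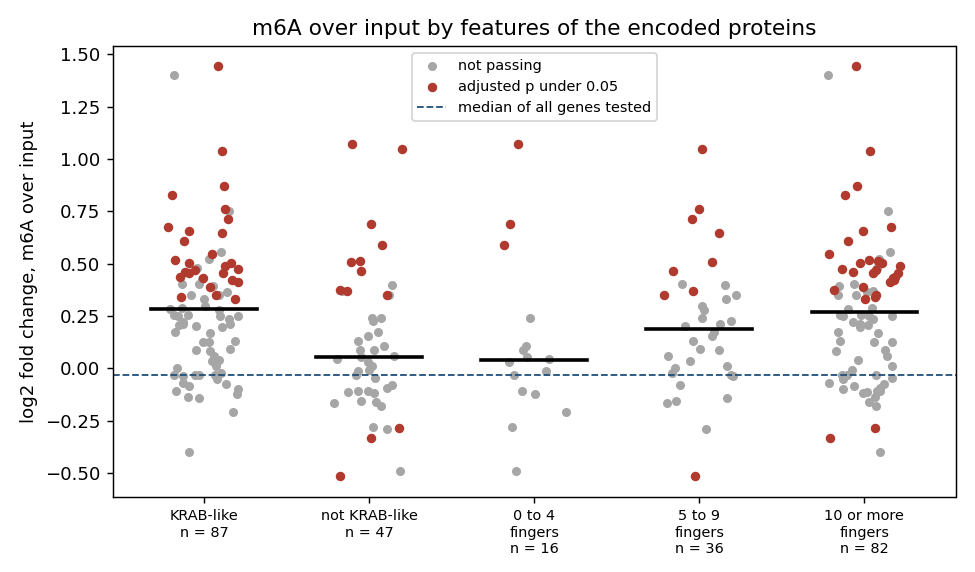
The log2 fold change of m6A over input (vertical axis) of the 134 members with a transcript, grouped by a KRAB-like stretch and by number of C2H2 fingers, with members past an adjusted p of 0.05 in red, group medians as black lines and the median of all genes tested dashed. The KRAB-like median is 0.28 and that of the other members 0.05.

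Transcript features followed the difference weakly. Across the 134 members, Spearman's rho with the log2 fold change was 0.33 for the density of the degenerate m6A motif (a central AC in its 5-base context), 0.18 for the number of fingers, -0.13 for the density of GGACT and -0.08 for transcript length. The members called higher held a median of 0.76 GGACT per kb, all members 0.79 and all genes tested 1.04.

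KRAB zinc finger genes lie in clusters of tandem copies, and of the 6 chromosomes with 8 or more members, 13 and 17 had the highest medians. All 10 members on chromosome 13, between positions 62129857 and 74494012, were KRAB-like and above 0. Their median log2 fold change was 0.52, and 5 were called higher (50%, against 11.0% of all genes). Among them were Zfp708 at 1.44 (SE 0.44, adjusted p = 0.030), Zfp934 at 1.04 (SE 0.29, adjusted p = 0.013) and Zfp712 at 0.67 (SE 0.18, adjusted p = 0.011). Zfp708 and Zfp934 were low in input, with 0 to 38 and 1 to 28 counts in the libraries used. The log2 ratio of Zfp708 ran from -1.79 to 4.07 between mice. On chromosome 17 all 19 members were KRAB-like and 18 were above 0, with a median of 0.41 and 8 called higher (42.1%). Zfp948, Zfp942, Zfp947, Zfp944, Zfp758, Zfp946 and Zfp945 among those called start within 21565816 to 22867309. The 32 members on chromosome 7 had a median of 0.11, the 16 on chromosome 8 one of 0.15 and the 9 on chromosome 6 one of -0.07. The chromosomes, and the members named on them that are not among the 10, were chosen after the values were seen. Copies of a cluster can share reads: for 8 of the 134 members, among them Zfp600, Zfp738, Zfp932, Zfp934 and Zfp937, over 50% of the encoded 12-residue words also occur in another gene, so their counts are uncertain.

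Within the groups, 24 members were higher and 1 lower in the KA 2 weeks mice (6 pairs), at shares of 17.4% and 0.725% against 4.81% and 2.34% of all genes. The PBS 2 weeks mice (3 pairs) gave 1 higher and 1 lower, where 1.44% and 0.525% of all genes were called. In the KA 24 hours mice (3 pairs) 0 were called with edgeR, where 0.190% and 0.00972% of all genes were higher and lower, and 1 with DESeq2. The KA 2 weeks count moved with single mice: 3 members were called without mouse 9, 8 without mouse 5 and 8 without mouse 7. The share of all genes is not set beside these counts, so a fall over all genes cannot be told from one in the members. Relative to all genes, the members' median log2 fold change was 0.24 in KA 2 weeks, 0.12 in PBS 2 weeks, 0.35 in the single PBS 24 hours pair and 0.14 in KA 24 hours. The PBS 2 weeks value was 0.08 without mouse 3 and 0.23 without mouse 4. The KA 24 hours value was -0.15 without mouse 8, and 0.56 without mice 67 and 98, which leaves mouse 8 alone. The median over members of the log2 ratio exceeded that over all genes by 0.75 in mouse 9, by 0.54 in mouse 8 and by 0.02 and -0.01 in mice 98 and 67.

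The partners through which KRAB zinc finger proteins act were looked at in the same comparison. Of 16 corepressor and silencing genes, 1 was higher in the m6A libraries and 3 were lower, where 11.0% and 8.83% of all genes were. The higher one was Mphosph8, a subunit of the HUSH silencing complex, at 0.58 (SE 0.10, adjusted p = 0.00032). Trim28, the corepressor that KRAB domains bind, was at -0.46 (SE 0.12, adjusted p = 0.011), Setdb1, which methylates lysine 9 of histone H3, at -0.27 (SE 0.08, adjusted p = 0.022), and the DNA methyltransferase Dnmt3a at -0.31 (SE 0.07, adjusted p = 0.0029). Mphosph8 and Dnmt3a were named after their values were seen. With all libraries used and no covariate, none was called between KA and PBS in the m6A libraries (16 tested at each time) or in the input libraries (16 tested at 24 hours and 15 at 2 weeks).

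KA was then compared with PBS in the m6A libraries, which asks whether the transcripts recovered with the antibody changed after seizures. At 24 hours 0 of 137 members passed with edgeR or with DESeq2, where 0.00607% and 0% of all genes were higher and lower with edgeR; at an unadjusted p under 0.05 there were 0 members and 4.02% and 1.29% of all genes. The members' median was -0.13, against 0.08 for all genes. This direction turned with the libraries used. It was 0.11 without mice 67 and 98, 0.11 with the library set as a covariate and 0.11 within library set 4, which holds 2 KA and 2 PBS mice. The other m6A sets of 24 hours held only KA or only PBS mice. The fit with the covariate therefore rests on set 4 too and is no separate result. Within set 4, 0 of 136 members passed, where 1.47% of all genes were higher and 0.639% lower; at an unadjusted p under 0.05, 9 members were higher and 5 lower (6.62% and 3.68%, against 10.4% and 8.93%).

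The members with the smallest p at 24 hours did not pass. Zfp853 was at 8.21, 7.94 and 4.35 CPM in PBS mice and at 2.02, 1.82, 5.79, 5.25 and 2.23 CPM in KA mice, a difference of -0.95 (SE 0.44, adjusted p = 0.98). Zfp622, a factor in maturation of the large ribosomal subunit, was at 63.8, 65.1 and 41.1 CPM in PBS and 33.3, 26.6, 54.9, 50.5 and 14.8 CPM in KA mice, a difference of -0.71 (SE 0.35, adjusted p = 0.98). Both sets of groups overlapped.

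At 2 weeks 0 of 136 members passed in the m6A libraries with edgeR or with DESeq2, and 0% of all genes did with edgeR; at an unadjusted p under 0.05, 0 were higher and 2 lower (1.47%), against 2.85% and 2.16% of all genes. The median of the members was 0.00054 and that of all genes -0.0013. Zfp648 was at 1.46 to 5.02 CPM (median 1.66) in the 5 PBS libraries and at 0.47 to 2.01 CPM (median 0.86) in the 6 KA libraries, a difference of -1.20 (SE 0.45, adjusted p = 0.87). Zfp831 was at 43.1 to 96.7 CPM (median 56.1) in PBS and 28.9 to 53.0 CPM (median 45.6) in KA mice, -0.52 (SE 0.23, adjusted p = 0.87), and Zfp697 differed by -0.36 (SE 0.18, adjusted p = 0.87). With all m6A libraries, members with and without a KRAB-like stretch lay on opposite sides. Of the KRAB-like members 60 of 86 were above 0 (median 0.11), and of the others 7 of 47 (median -0.17). The difference of the 2 medians was 0.28, and 0.09 within library set 5, the only m6A set of that time with both treatments. Within set 5 both medians were above 0, at 0.097 and 0.0071. For Zfp1 to Zfp599, with all m6A libraries, the medians were 0.03 (47 of 83 above 0) and -0.15 (28 of 105 above 0).

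The KA effect in m6A libraries at 24 hours was tested against that at 2 weeks. With edgeR and with DESeq2 0 of 138 members passed, 0 at an unadjusted p under 0.05, where 0.00573% of all genes were higher and 0% lower with edgeR (1.82% and 0.636% unadjusted). The smallest p belonged to Zfp932 (-0.78, SE 0.39), Zfp942 (-1.01, SE 0.52) and Zfp944 (-0.92, SE 0.49), each at an adjusted p of 1.00. Without PBS mouse 1, Zfp942 was at -0.44 and Zfp944 at -0.48.

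In the input libraries, which measure expression irrespective of m6A, 24 hours offered 3 KA mice and 1 PBS mouse, so the PBS spread was assumed to be that of the KA mice. With edgeR and with DESeq2 0 of 134 members passed, and 0% of all genes with edgeR; unadjusted, 0 members were higher and 1 lower (0.746%), against 1.49% and 0.798%. Without KA mouse 8, which stood apart, 1 member was higher and 9 lower (0.781% and 7.03%, against 7.16% and 5.83% of all genes), and with the library set as a covariate 2 were higher and 11 lower (1.49% and 8.21%, against 7.74% and 6.97%). At 24 hours mouse 8 was alone in its input set, so the covariate also sets it apart, and all 10 members called without it were among these 13. Zfp703 was higher in both, and Zfp646 was the other higher one with the covariate (0.68, SE 0.22, adjusted p = 0.041). The lower ones without mouse 8 included Zfp773 (-1.75, SE 0.29, adjusted p = 0.011), Zfp944 (-1.28, SE 0.30, adjusted p = 0.032), Zfp758 (-1.05, SE 0.23, adjusted p = 0.027), Zfp943 (-1.02, SE 0.20, adjusted p = 0.019) and Zfp638 (-0.64, SE 0.16, adjusted p = 0.038), chosen after their values were seen. These calls compare 2 KA mice with a single PBS mouse. For Zfp773 mouse 8 went the other way, with 867 input counts (87.4 CPM). The deeper input library of the PBS mouse held 268, and those of KA mice 67 and 98 held 35 and 17.

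With all 4 mice the smallest p at 24 hours belonged to Zfp763, a KRAB-like member on chromosome 17, to Zfp938 and to Zfp703. Zfp763 was at 29.4 CPM in the PBS mouse and at 12.5, 14.6 and 13.6 CPM in KA mice, -0.83 (SE 0.32, adjusted p = 0.99). Zfp938 was at 23.5 CPM in the PBS mouse and at 10.9, 10.5 and 11.5 CPM in KA mice, -0.81 (SE 0.34, adjusted p = 0.99). Every KA value of both lay below the single PBS value, and both genes were chosen by their p.

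At 2 weeks (6 KA and 3 PBS input libraries) 0 of 128 members passed with edgeR or with DESeq2, and 0% of all genes did with edgeR. At an unadjusted p under 0.05, 4 members were higher and 20 lower (3.12% and 15.6%), against 8.41% and 5.69% of all genes. The members' median was -0.17 and that of all genes 0.02. Of the 20 lower members 19 were KRAB-like, and of the 4 higher ones 0 were, with 1 of them without a transcript. The KRAB-like members had a median of -0.24 (20 of 81 above 0) and the others 0.01 (22 of 44 above 0). For Zfp1 to Zfp599 the medians were -0.17 (n = 79) and -0.04 (n = 99). The difference between the 2 classes of members was -0.25, between -0.39 and -0.17 under the 15 alternatives, and -0.38 within the libraries whose column names carry no set prefix. The input libraries of 2 weeks with a prefix were all from KA mice.

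The smallest p in the input libraries of 2 weeks belonged to Zfp932, Zfp763 and Zfp703, and genes chosen this way tend to separate between groups. How many of all genes tested separate in this way was not counted. Zfp932 was at 32.4, 30.8 and 26.7 CPM in the PBS mice. In the 6 KA mice it was at 15.9 to 24.9 CPM (median 19.5), with no overlap. Its difference was -0.56 (SE 0.16, adjusted p = 0.26). Zfp932, which represses endogenous retroviruses, shares 99.6% of its encoded words with another gene, so that reads may have been split. Zfp763 was at 30.0, 34.8 and 29.2 CPM in the PBS mice and at 11.6 to 25.5 CPM (median 18.9) in KA mice, also with no overlap, a difference of -0.69 (SE 0.21, adjusted p = 0.27). In the m6A libraries of 2 weeks Zfp763 overlapped between groups, at 29.5 to 45.1 CPM in PBS and 16.6 to 43.7 CPM in KA mice.

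Markers of cell types differed between these libraries too, with overlapping ranges. In the input libraries of 2 weeks the 5 astrocyte markers summed to 3163 to 7332 CPM in KA and 2074 to 4299 CPM in PBS mice, the 5 microglia markers to 149 to 350 and 100 to 163 CPM, and the 5 excitatory neuron markers to 1404 to 3401 and 1119 to 2176 CPM. The oligodendrocyte markers summed to 1781 to 3090 CPM in KA and 1932 to 2372 CPM in PBS mice, the endothelial markers to 433 to 1060 and 706 to 1004 CPM (medians 601 and 872) and the choroid plexus markers to 220 to 1612 and 519 to 978 CPM. Their part in the result was not tested, and in bulk tissue fewer cells of a type and less RNA per cell cannot be told apart.

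Zfp703, a corepressor without a classical finger that is amplified in luminal breast cancer, was named by its p in 3 of the comparisons of KA with PBS. In input libraries of 24 hours it was at 4.88 CPM in the PBS mouse and at 16.2, 13.8 and 5.85 CPM in KA mice, 1.53 (SE 0.65, adjusted p = 0.99), and 1.82 (SE 0.29, adjusted p = 0.0098) without mouse 8, which was the low value. At 2 weeks it was at 3.33, 3.14 and 3.85 CPM in PBS and 4.74 to 10.3 CPM (median 5.88) in KA mice, with no overlap, 1.04 (SE 0.33, adjusted p = 0.27). In m6A libraries of 24 hours it was at 11.0, 14.7 and 3.62 CPM in PBS and 17.2, 17.5, 28.0, 40.6 and 7.12 CPM in KA mice, 1.10 (SE 0.54, adjusted p = 0.98). The m6A groups of 2 weeks overlapped fully, 4.82 to 14.7 CPM in PBS and 3.45 to 20.4 CPM in KA mice, 0.09 (SE 0.42, adjusted p = 0.97). Input and m6A values of a time come from partly the same mice and are given side by side only.

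**Figure D4:**
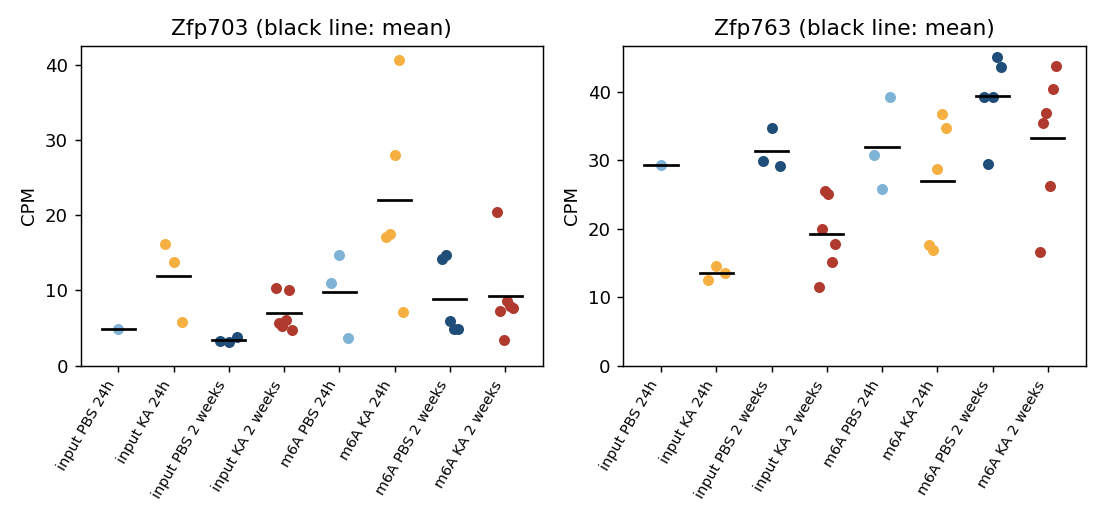
CPM (vertical axis) of Zfp703 and Zfp763 in every library used, by assay, treatment and time, 1 point per library with the group mean as a black line. In the input libraries of 2 weeks the KA and PBS values of both genes do not overlap (Zfp703 4.74 to 10.3 against 3.14 to 3.85 CPM). Both genes were chosen by their small p in that comparison.

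The change of m6A over input with KA was tested at 2 weeks (6 KA and 3 PBS pairs). With edgeR and with DESeq2 0 of 134 members passed, where 0% of all genes were higher and 0.00636% lower with edgeR; unadjusted, 10 were higher and 1 lower (7.46% and 0.746%), against 2.06% and 2.21% of all genes. The members' median was 0.20, against -0.03 for all genes, and it fell to 0.04 with the library set as a covariate. KRAB-like members had a median of 0.35 (67 of 84 above 0) and the others -0.06 (21 of 46 above 0). That difference of 0.41 was -0.04 with the library set as a covariate. All PBS pairs had an m6A library of set 5 and an input without a prefix, so set and treatment are partly tied. For Zfp1 to Zfp599 the medians were 0.23 for KRAB-like genes (61 of 83 above 0) and 0.05 for the rest (58 of 105 above 0). The comparison uses the same input libraries as the input comparison. The smallest p belonged to Zfp738 (0.86, SE 0.28), Zfp831 (-0.55, SE 0.18) and Zfp932 (0.93, SE 0.32), each at an adjusted p of 0.87.

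**Figure D5:**
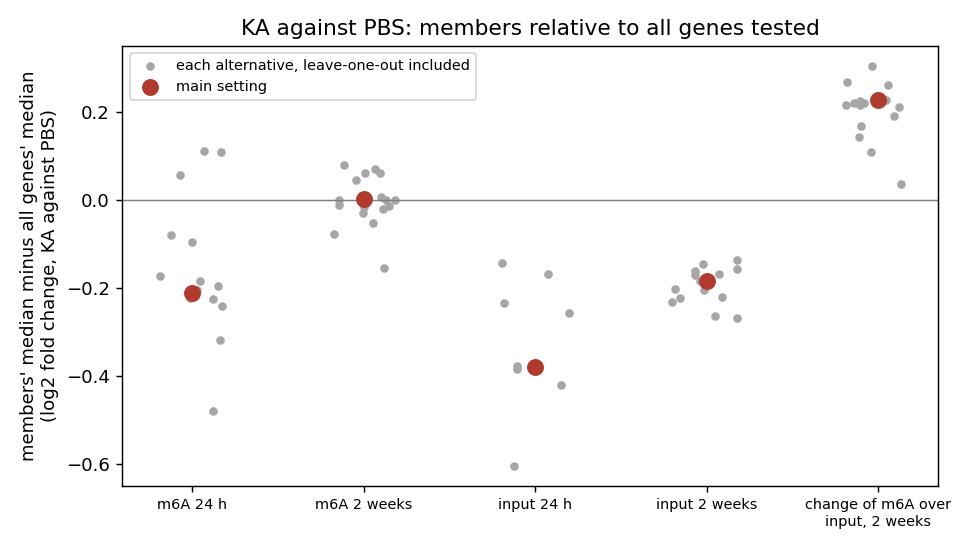
The members' median log2 fold change minus that of all genes tested (vertical axis) for KA against PBS in each assay and time and for the change of m6A over input, with the main setting as a large red point and each alternative in grey. The input 2 weeks points lie between -0.27 and -0.14, and the m6A 24 h points run from -0.48 to 0.11, on both sides of 0.

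Among members with roles outside the family, Zfp622 was higher in the m6A libraries by 0.59 (SE 0.16, adjusted p = 0.014). Zfp703 (0.05, SE 0.13), Zfp704 (-0.01, SE 0.08) and Zfp706 (-0.11, SE 0.09), a small protein linked to the exit of stem cells from self-renewal, were not called there. With all libraries used and no covariate, no comparison of KA with PBS called Zfp622, Zfp638, Zfp704, Zfp706 or Zfp830; Zfp638 was called lower in the input libraries of 24 hours without mouse 8 and with the set covariate (-0.63, SE 0.18, adjusted p = 0.021). Zfp600 had 0 counts in 7 of the 13 input libraries and was not tested at 2 weeks; its m6A over input value was 1.40 (SE 0.50, adjusted p = 0.054).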

How the data were processed

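Hippocampal input and m6A-immunoprecipitated RNA was sequenced from mice given KA or PBS. The deposited values are counts of reads for each gene symbol in each lane, which the authors did not normalize, and the submitters' processing notes name mm10. For the aligner, the counter and its strand setting: not given in the sources used here. Among the 148 columns in 15 tables, 140 were mapped to samples and 8 were not used. The 4 lanes of a library were summed. Input libraries under 100000 counts (3 of 16) were left out. Within an assay each library came from a separate mouse, and a mouse could give both an input and an m6A library.

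Differences were tested with edgeR 4.0.16 (R 4.3.3; robust quasi-likelihood, TMM, filterByExpr by group), and p-values were adjusted by Benjamini-Hochberg over all genes tested, with a threshold of 0.05. Log2 fold changes come from these fits; CPM values use total counts. Standard errors were derived from the F statistic. The fits were tested on simulated data. Alternatives were DESeq2 1.42.0, library size scaling, other filters, the library set as a covariate, no mouse block, all input libraries and leaving out each mouse; values within a set and without mice 67 and 98 were chosen after seeing the data. The mouse pairs input with m6A since both come from 1 animal per the labels; for 12 mice, deviations from group means correlated at -0.01 to 0.87.

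Named genes were up to 10 members higher and 10 lower with the smallest p past the threshold in m6A over input (only 3 were lower), the 3 with the smallest p in each other comparison, where none passed, 6 members with a known role, those nearest the count limit, and Trim28 and Setdb1. Members and lists were chosen with earlier results of these data known. Sequence features came from GENCODE vM39 transcripts (GRCm39) and gene positions from RefSeq on GRCm38.p6; 4 members had no match. A KRAB-like stretch and fingers were found by pattern. The GGACT stretch of 1 further member is not reported here. Counting error limits low genes: 3 counts were 0.236 CPM in the deepest input library and 0.981 CPM in the shallowest one used. In the m6A libraries of KA mice 67 and 98 they were 1.52 and 1.81 CPM.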

Additional observations from a re-analysis of the deposited data

Results flagged for a closer look

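Among 75 groups of 4 to 10 libraries of the named members, 4 held a value far from the others by Dixon's test, and chance gives about 1 in 20. Zfp648 was at 5.02 CPM in the m6A library of PBS 2 weeks mouse 4, against 1.46 to 2.03 CPM in the other PBS libraries. Zfp771 was at 5.67 CPM in the m6A library of KA 2 weeks mouse 6, against 18.8 to 24.8 CPM. Zfp830 was at 13.4 CPM in the input library of KA 2 weeks mouse 21, against 8.18 to 9.20 CPM. Zfp956 was at 3.78 CPM in the m6A library of KA 24 hours mouse 8, against 7.58 to 9.10 CPM. Mouse 6 and mouse 8 are the m6A libraries with 17.5% and 16.4% of counts from mitochondrial genes. Whether this plays a part was not tested.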

How the results depend on the processing

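In m6A over input, 42 members were called. Requiring a log2 fold change above 1 left 4 (4 higher, 0 lower), library size scaling gave 71 (71 higher, 0 lower), and without the replicate block, the mouse that pairs both libraries, there were 24 (22 higher). DESeq2 gave 5 lower and no filter 1 lower. Leaving out 1 mouse gave 31 to 53 called, 28 to 49 higher and 2 to 5 lower. In KA 2 weeks mice the 25 calls became 6 above 1, 52 with library size, 2 without the replicate block and 3 to 35 without 1 mouse. In PBS 2 weeks mice the 2 became 4 with DESeq2, 9 with library size, 0 without the replicate block, 1 without mice 67 and 98, and 0 to 3 without 1 mouse. In KA 24 hours mice the 0 became 1 with DESeq2, 2 with library size and 0 to 1 without 1 mouse. In the input libraries of 24 hours the 0 became 13 with the library set as a covariate and 0 to 10 without 1 mouse; the fit without PBS mouse 1 could not be made, since no PBS mouse is left. Where no share of all genes is given above for a setting, its count does not show whether members moved apart from all genes. Medians changed sign in 4 comparisons. In m6A at 24 hours the median was 0.106 with the set covariate, 0.108 within set 4 and 0.106 without mice 67 and 98. The covariate fit rests on set 4, the only m6A set of that time with both treatments. In m6A at 2 weeks it was -0.0123 with DESeq2, -0.0839 with library size, -0.0174 with no filter, -0.00027 with a mean of at least 10 counts and -0.0559 to 0.0738 without 1 mouse. In input at 24 hours it was 0.0871 with all input libraries. The 24 hours against 2 weeks median was 0.0633 with library size, 0.200 without mice 67 and 98, and -0.196 to 0.0663 without 1 mouse. The causes were not tested. Of the named members' values, 214 of m6A over input kept direction and call and 7 lost the call. For KA against PBS no member was called in the main fits, so there was no call to lose. There 258 values kept their direction and stayed uncalled, and 6 passed newly. The input libraries of 24 hours hold 1 PBS mouse, and the m6A libraries of mice 67 and 98 had the fewest counts.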
